A study of Homo sapiens with 6 samples.

Results

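The metallothionein genes MT1E, MT1F, MT1G, MT1X and MT2A and the zinc sensor gene MTF1 were compared between RBM47-overexpressing and control HCT116 cells, an established human colorectal carcinoma line. The 6 genes were chosen by symbol. MT1G was not analysed here, and the other 5 were found among the 28491 genes of the count table and were among the 16260 genes tested. Poly(A) RNA was sequenced 48 h after Lipofectamine transfection, as 3 libraries from cells given a plasmid with RBM47, an RNA-binding protein (RBM47-OE), and 3 from cells given a control plasmid (NC). The labels name the RBM47 plasmid as pcDNA3.1-3xFlag-RBM47 and the methods as pIRES-hrGFP-1a carrying the same transcript, and they also differ in the medium and the library kit. The sources used here do not say that replicates were separate cultures, so p-values measure the spread between these libraries, which may be technical.

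Metallothioneins are small proteins, rich in cysteine, that bind and buffer zinc and copper and also take up toxic metals such as cadmium. Human cells carry a cluster of these genes on chromosome 16, of which MT2A and several MT1 genes are active in most tissues, and the colon epithelium uses them in zinc homeostasis and in protection from oxidants. MTF1 is a zinc finger transcription factor that binds DNA when zinc rises, at short metal response elements in the promoters of metallothionein and zinc transporter genes.

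For RBM47, the overexpressed gene, FPKM (fragments on a gene scaled by gene length and library size) ranged from 1.91 to 2.33 in NC and from 127.0 to 131.3 in RBM47-OE. The 2 groups were thus far apart in the direction the labels give, and transcripts of the plasmid are included. Libraries held 26792409 to 35477983 counts. All 8 epithelial markers searched had counts, from a mean of 4300 CPM (counts scaled to library size with TMM factors) for KRT8 in NC to 0.518 for VIL1, which defines absorptive epithelium and was near 0. Of 8 markers of immune, endothelial and fibroblast cells, 4 were in the table, and CD3E, PECAM1 and CD68 had mean levels under 1 CPM, whereas COL1A1 had 15.2 ± 1.95 CPM (SD, n = 3) in RBM47-OE. By edgeR, KRT8, KRT18 and CLDN7 of the epithelial markers were lower (log2 fold changes -0.27, -0.36 and -0.26) and EPCAM was higher (0.26), and of the other markers CD68 was lower (-1.10, adjusted p = 0.033) and COL1A1 did not pass the test (-0.070). Of these genes EPCAM alone was also called with an offset for exonic GC content. The part of these markers in the metallothionein levels was not tested.

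Promoter sequence was searched for the letters through which MTF1 is known to act. The 250 bases before the transcription start were taken from RefSeq (GRCh38.p14) for the 3 of 6 genes that matched, MT2A, MT1X and MTF1. The windows are chr16:56608334-56608583 on the plus strand for MT2A, chr16:56682220-56682469 on the plus strand for MT1X and chr1:37859593-37859842 on the minus strand for MTF1. Each is written 5′ to 3′ on the strand of its gene, and capitals mark each match to TGCACNC or TGCGCNC, the core letters of the metal response element, on either strand.
MT2A: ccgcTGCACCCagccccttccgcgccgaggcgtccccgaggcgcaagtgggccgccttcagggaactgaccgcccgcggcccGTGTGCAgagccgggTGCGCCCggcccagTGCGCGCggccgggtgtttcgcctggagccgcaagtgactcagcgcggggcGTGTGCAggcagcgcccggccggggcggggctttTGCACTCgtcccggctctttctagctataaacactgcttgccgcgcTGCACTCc
MT1X: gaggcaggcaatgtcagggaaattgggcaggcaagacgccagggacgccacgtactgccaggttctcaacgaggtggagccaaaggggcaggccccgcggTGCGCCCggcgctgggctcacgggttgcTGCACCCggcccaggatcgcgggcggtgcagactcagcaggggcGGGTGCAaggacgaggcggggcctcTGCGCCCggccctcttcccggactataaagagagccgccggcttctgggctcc
MTF1: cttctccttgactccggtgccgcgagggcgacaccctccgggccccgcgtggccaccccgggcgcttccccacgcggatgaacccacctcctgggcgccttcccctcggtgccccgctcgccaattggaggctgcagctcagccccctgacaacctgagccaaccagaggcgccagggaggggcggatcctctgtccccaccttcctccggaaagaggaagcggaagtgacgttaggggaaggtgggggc

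The MT2A window held 7 matches, 5 on the plus and 2 on the minus strand, with the nearest starting 8 bases and the farthest 246 bases before the start. The MT1X window held 4, between 53 and 150 bases before the start, and the MTF1 window held 0. Of 35116 promoters of the same length, 24.8% held at least 1 match, 0.37% at least 4 and 0.0313% at least 7. A match is a description of the letters and not a measured binding site.

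**Figure D1:**
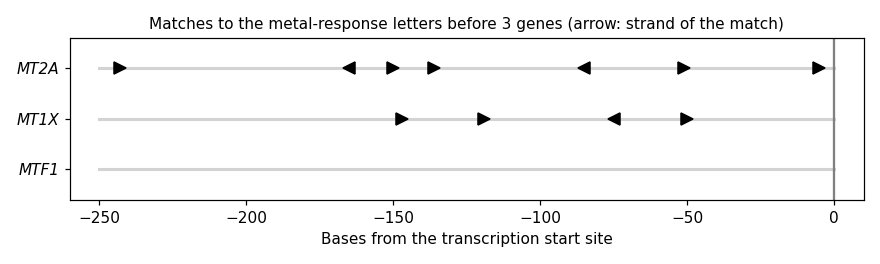
Positions of matches to TGCACNC or TGCGCNC in the 250 bases before the transcription start (x axis, bases from the start) of MT2A, MT1X and MTF1, with arrows pointing along the strand of each match. MT2A has 7 matches spread over the window, MT1X 4 and MTF1 0.

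The 4 metallothionein genes are near copies of each other in their coding sequence, which matters for counting. MT2A spans chr16:56608584-56609497, MT1E chr16:56625475-56627112, MT1F chr16:56657731-56660698 and MT1X chr16:56682470-56684196, all on the plus strand of GRCh38, and MTF1 lies at chr1:37809574-37859592 on the minus strand. Each metallothionein coding sequence has 183 bases, and 154 of these (84.2%) are the same in all 4 genes. Pairs were identical at 88.5% (MT1F and MT1X) to 92.3% (MT1E and MT2A, MT1X and MT2A) of the bases. The first 27 coding bases, read from GRCh38 from positions 56625852 (MT1E), 56658059 (MT1F), 56682541 (MT1X) and 56608656 (MT2A) of chromosome 16, show how close the genes are, with capitals at the 6 positions where any of them differ.
MT2A: atggaTcccaactgctcCtgcGcCGcC
MT1E: atggaCcccaactgctcTtgcGcCAcT
MT1X: atggaCcccaactgctcCtgcTcGCcT
MT1F: atggaCcccaactgctcCtgcGcCGcT

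The authors counted only reads with 1 mapped position, so a read that fits several of these genes equally well would not be counted. No window of 150 bases in the mRNA of MT1E (555 windows), MT1F (276) or MT2A (252) was found unchanged in a transcript of another gene, and for MT1X this held for all but 17 of 255 windows (6.67%). These 17 fell in ENSG00000259827, a long noncoding RNA gene on the same strand that shares 321 exonic bases with MT1X, so the counts of MT1X are uncertain there. At 50 bases, 5.34% of the windows of MT1E, 6.12% of MT1F, 11.1% of MT2A and 51% of MT1X occurred in another gene. For MT1X these genes included the overlapping ENSG00000259827, so the 51% does not measure sequence shared with other metallothionein genes alone. Only unchanged matches were searched, and the effect of mismatches on the counts was not tested.

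MT2A was the most abundant of the 5 genes and MTF1 the least. On the FPKM scale the NC means were 542.7 ± 5.84 for MT2A, 197.3 ± 5.62 for MT1E, 28.8 ± 1.83 for MT1X, 4.53 ± 0.0379 for MT1F and 3.803 ± 0.200 for MTF1 (SD, n = 3). By mean FPKM, MT2A ranked 59 of 16368 protein-coding genes in NC and 75 in RBM47-OE, and MT1E moved from 162 to 222. MT1X moved from rank 1308 to 1721, while MT1F stood at 6167 and 6454 and MTF1 at 6771 and 6585. The ranges of neighbours in this order did not overlap in NC. In RBM47-OE, MT1F (3.79 to 5.46 FPKM) and MTF1 (3.84 to 4.69 FPKM) overlapped.

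The gaps between genes in this order depend on the length by which counts are divided. Lengths worked out from the deposited counts and FPKM were 1.13 times the summed exons for each of the 5 genes. This shared factor leaves the gaps between genes unchanged, and whether it comes from the library total was not tested. The lengths behind the FPKM thus went in proportion to the summed exons, such as 1852 bases for MT1F. The MT1F mRNA used below has 425 bases. For each gene the length of a single annotated mRNA was then used, which was not chosen by its abundance in these libraries. Divided by that length, the NC levels were 1436 ± 9.74 CPM per kb for MT2A, 342 ± 11.2 for MT1E, 143 ± 9.63 for MT1X, 22.9 ± 0.0931 for MT1F and 4.44 ± 0.234 for MTF1 (SD, n = 3). The order was the same, but MT1F stood further above MTF1 than on the FPKM scale.

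MT2A, MT1E and MT1X fell in RBM47-OE, MT1F and MTF1 did not pass the test, and no gene of the 5 rose. By edgeR's quasi-likelihood test at an adjusted p-value under 0.05, 3 of the 5 genes were lower, where 16.9% of all genes tested were lower and 19.1% were higher. None of the 5 was higher, and none had an unadjusted p under 0.05 in that direction by edgeR or by DESeq2. MT2A and MT1E also passed the study's thresholds for DEGs, an unadjusted p under 0.01 and a fold change over 1.5, which 0.873% of all genes passed in that direction. For MT2A, MT1E and MT1X all RBM47-OE libraries lay below all NC libraries in CPM, as did 23.4% of all genes tested. In bulk RNA, fewer cells expressing a gene and less of its RNA per cell cannot be told apart.

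MT2A (ENSG00000125148.7), the most widely expressed metallothionein, had 572, 580 and 576 CPM in NC libraries 1 to 3, against 441, 321 and 371 CPM in RBM47-OE libraries 1 to 3, from 10313 to 20045 counts. The NC libraries lay close together, and the RBM47-OE libraries lay below them and spread more widely, with replicate 2 lowest and replicate 1 nearest to NC. The mean went from 576 ± 3.90 to 378 ± 59.99 CPM (SD, n = 3), which was 34.4% lower. The log2 fold change was -0.61 (standard error 0.086, 95% interval -0.79 to -0.43, adjusted p = 3.2e-05 by edgeR).

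MT1E (ENSG00000169715.15), a metallothionein of the MT1 group, had 250, 234 and 239 CPM in NC libraries 1 to 3, against 183, 136 and 152 CPM in RBM47-OE libraries 1 to 3. The libraries took the same order as for MT2A in RBM47-OE, and the groups did not overlap. The mean went from 241 ± 7.88 to 157 ± 23.6 CPM (SD, n = 3), or 34.8% lower, with a log2 fold change of -0.62 (standard error 0.084, 95% interval -0.79 to -0.45, adjusted p = 2.7e-05 by edgeR). Of all genes tested, 2.42% had a lower log2 fold change than MT1E and 2.51% a lower one than MT2A.

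MT1X (ENSG00000187193.9), also of the MT1 group, had 62.0, 56.8 and 54.3 CPM in NC libraries 1 to 3, against 50.4, 37.1 and 39.0 CPM in RBM47-OE libraries 1 to 3. RBM47-OE replicate 1 lay just under the lowest NC library, and replicates 2 and 3 lay further down. The mean was 26.9% lower, from 57.7 ± 3.89 to 42.2 ± 7.21 CPM (SD, n = 3), with a log2 fold change of -0.45 (standard error 0.094, 95% interval -0.64 to -0.26, adjusted p = 0.00072 by edgeR). The fold change did not reach 1.5, so MT1X was not a DEG by the study's thresholds.

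MT1F (ENSG00000198417.7) was the least abundant metallothionein of the 4, with 243 to 377 counts in each library. Its level was 9.70, 9.78 and 9.77 CPM in NC libraries 1 to 3, against 11.4, 7.57 and 9.04 CPM in RBM47-OE libraries 1 to 3. The groups overlapped, since RBM47-OE replicate 1 lay above all NC libraries and the other two lay below them. The log2 fold change was -0.061 (standard error 0.13, 95% interval -0.33 to 0.21, adjusted p = 0.76 by edgeR), and its sign was not stable: without RBM47-OE replicate 2 it was 0.072, and with an offset for the GC content of the exons it was 0.11.

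MTF1 (ENSG00000188786.10), the zinc-sensing activator of the metallothionein genes, had 34.7, 33.7 and 37.3 CPM in NC libraries 1 to 3, against 34.6, 39.9 and 41.5 CPM in RBM47-OE libraries 1 to 3. RBM47-OE replicates 2 and 3 lay above all NC libraries and replicate 1 lay among them. The log2 fold change was 0.13 (standard error 0.086, 95% interval -0.04 to 0.31, adjusted p = 0.24 by edgeR). Without RBM47-OE replicate 1 the log2 fold change was 0.21 and passed the test (adjusted p = 0.023 by edgeR).

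**Figure D2:**
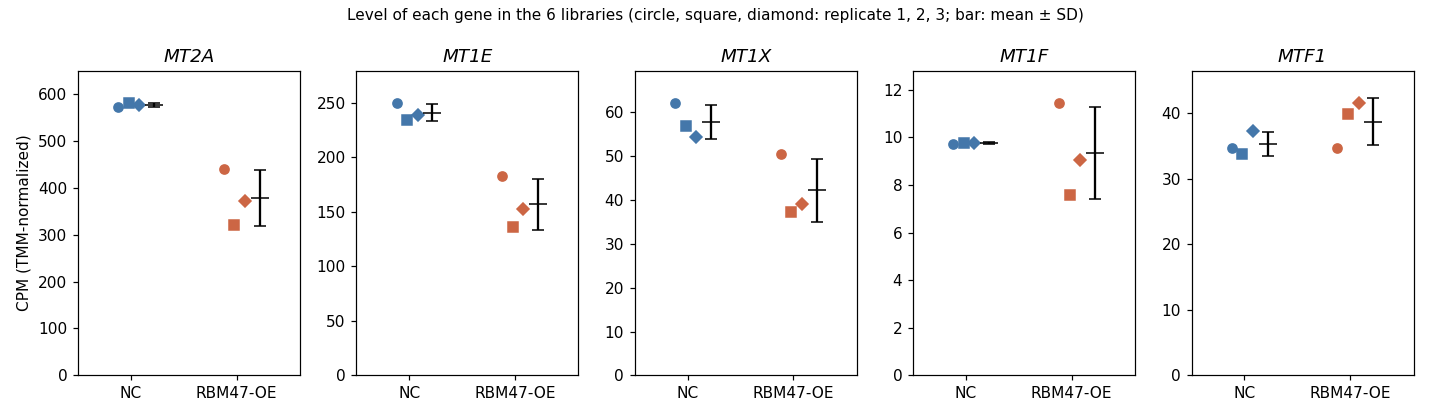
TMM-normalized CPM (y axis, from 0, with its own scale in each panel) of the 5 genes in the 3 NC and 3 RBM47-OE libraries, with circles, squares and diamonds for replicates 1, 2 and 3 and bars for the mean ± SD. MT2A, MT1E and MT1X lie lower in every RBM47-OE library than in any NC library, with RBM47-OE replicate 1 nearest to NC, whereas the groups overlap for MT1F and MTF1.

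An exact two-sided permutation test over the 6 libraries on FPKM gave p = 0.1 for MT1E, MT1X and MT2A, the smallest value that 3 against 3 allows, 1 for MT1F and 0.2 for MTF1. The RBM47-OE libraries differed among themselves more than the NC libraries did. Against the NC mean, MT1E differed by -0.40, -0.82 and -0.66 on the log2 scale in RBM47-OE replicates 1, 2 and 3, and MT2A by -0.39, -0.84 and -0.63. MT1X differed by -0.19, -0.63 and -0.56, so in all 3 genes replicate 1 showed the smallest and replicate 2 the greatest difference.

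The levels of genes in these libraries also moved with the GC content of the exons, and the metallothionein genes are rich in GC. Their exonic GC content was 58.7% for MT1E, 57.1% for MT1F, 54.2% for MT2A and 53.7% for MT1X, against 46.6% for MTF1. The 3182 tested genes of 53 to 59% exonic GC, a range chosen after the values were seen, had a median log2 fold change of -0.18. Of these, 31.4% were called lower and 0.849% higher, beside 16.9% and 19.1% of all genes. With each library's trend with GC content taken out as an offset (the GC offset), MT2A fell by 0.47 on the log2 scale (adjusted p = 0.00030), MT1E by 0.43 (adjusted p = 0.00030) and MT1X by 0.31 (adjusted p = 0.010) in edgeR's quasi-likelihood test. These 3 of the 5 genes were then called lower and none higher (none higher at an unadjusted p under 0.05 either), beside 8.57% and 5.97% of all genes tested. No gene of the 5 passed the study's thresholds with the GC offset, and none did without RBM47-OE replicate 2, whereas MT2A, MT1E and MT1X did without RBM47-OE replicate 1. Over all genes, those past these thresholds in the lower direction also changed in number. They were 142 of 16260 by edgeR and 92 with the GC offset, 126 of 16411 without RBM47-OE replicate 2 and 213 of 16434 without replicate 1.

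The metallothionein mRNAs used above are also short, from 401 bases (MT2A) to 704 bases (MT1E). The 1362 tested genes whose canonical transcript, as marked in the annotation, has at most 750 bases had a median log2 fold change of -0.14. Of these, 17.0% were called lower and 2.20% higher, beside 16.9% and 19.1% of all genes. The share of GC content and of transcript length in the lower metallothionein levels was not tested beyond these offsets.

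**Figure D3:**
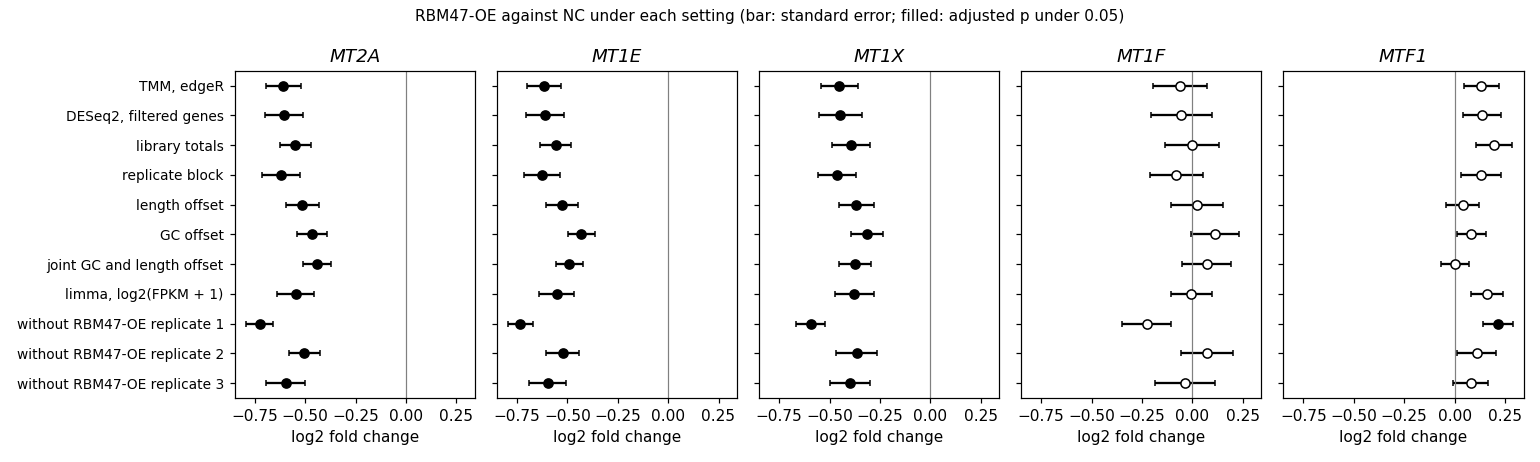
Log2 fold change of RBM47-OE against NC (x axis) for each gene under 11 settings (rows), with bars for the standard error and filled points for an adjusted p under 0.05. MT2A, MT1E and MT1X stay below 0 and filled in every setting drawn, MT1F lies on both sides of 0, and MTF1 is filled, of the settings drawn, only without RBM47-OE replicate 1.

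As the paralogs share sequence, their counts were also summed. Reads that fit several of them equally well would not be counted, and the sum does not bring such reads back. The 4 metallothioneins together had 893, 880 and 879 CPM in NC libraries 1 to 3, against 685, 502 and 572 CPM in RBM47-OE libraries 1 to 3. The groups did not overlap, and the summed level was 33.7% lower in RBM47-OE, at 586 ± 92.4 against 884 ± 7.89 CPM (SD, n = 3), a log2 ratio of -0.59. On the FPKM scale the sum was 773 ± 1.83 in NC and 535 ± 71.8 in RBM47-OE (SD, n = 3). The summed counts made up 0.0858 to 0.0876% of all counts in NC and 0.0527 to 0.0686% in RBM47-OE.

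The make-up of this sum was nearly the same in both groups for the abundant paralogs. MT2A took 64.0, 65.9 and 65.5% of the summed counts in NC libraries 1 to 3, against 64.3, 64.0 and 64.9% in RBM47-OE libraries 1 to 3. MT1E took 27.9, 26.6 and 27.2% in NC and 26.7, 27.1 and 26.7% in RBM47-OE. For each count of MT1E there were 2.39 ± 0.0932 counts of MT2A in NC and 2.403 ± 0.0392 in RBM47-OE (SD, n = 3), with overlapping groups (exact two-sided permutation p = 0.8).

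MT1F, whose own level was not called, took a larger share of the sum in every RBM47-OE library than in any NC library. Its share was 1.09, 1.11 and 1.11% in NC libraries 1 to 3, against 1.67, 1.51 and 1.58% in RBM47-OE libraries 1 to 3, with exact 95% Clopper-Pearson intervals of 0.958 to 1.25% over the NC libraries and 1.33 to 1.84% over the RBM47-OE libraries. Neither the shares nor these intervals, which cover counting error only, overlapped between the groups. The mean went from 1.10 ± 0.0142% to 1.59 ± 0.0803% (SD, n = 3, exact two-sided permutation p = 0.1, the smallest possible), a ratio of 1.44.

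The share of MT1X was 6.94, 6.45 and 6.18% in NC and 7.36, 7.40 and 6.82% in RBM47-OE, and the groups overlapped (exact two-sided permutation p = 0.2). Set against each abundant paralog in turn, a comparison chosen after the values were seen, MT1F had 16.9 to 17.0 counts per 1000 MT2A counts in NC and 23.6 to 25.9 in RBM47-OE. Per 1000 MT1E counts MT1F had 38.9 to 41.8 counts in NC and 55.6 to 62.6 in RBM47-OE, and per 1000 MT1X counts 157 to 180 in NC and 204 to 232 in RBM47-OE. In each of these ratios the lowest RBM47-OE library exceeded the highest NC library. MT2A, MT1E and MT1X were each called lower, so a gene whose level stays the same rises against them. The share of MT1F and these ratios thus give no test of a change particular to MT1F. Of all genes tested, 43.6% had a lower log2 fold change than MT1F, where 2.51% had a lower one than MT2A.

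**Figure D4:**
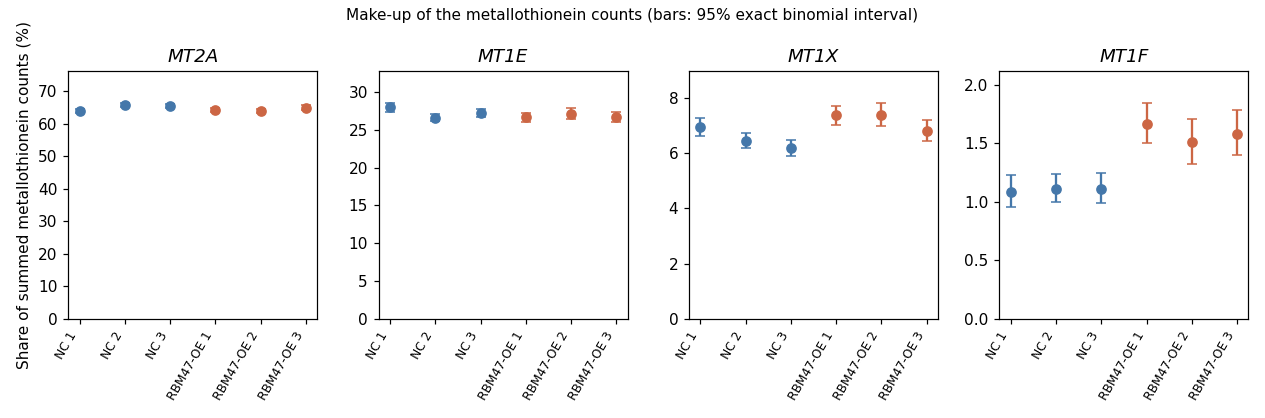
Share of the summed metallothionein counts taken by each paralog (y axis, percent, from 0, with its own scale in each panel) in each library, with exact 95% binomial intervals that cover counting error only. The shares of MT2A and MT1E lie between 64.0 and 65.9% and between 26.6 and 27.9% in all libraries, while that of MT1F is 1.10% on average in NC and 1.59% in RBM47-OE.

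The other metallothionein genes gave few counts. Of 14 further genes and pseudogenes listed, 5 were in the count table, the others were not analysed here, and MT1DP, a pseudogene of the MT1 group, was the only one to pass the filter on low counts. MT1DP had 14, 21 and 10 counts in NC libraries 1 to 3, against 20, 15 and 10 in RBM47-OE libraries 1 to 3, and it was not called (log2 fold change -0.07, standard error 0.41, adjusted p = 0.92 by edgeR).

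The genes that handle zinc and copper beside metallothioneins were followed as lists, and each list gene given as risen or fallen passed an adjusted p of 0.05 by edgeR. Zinc transporters of the SLC30 family, which mostly move zinc out of the cytosol, rose in most of the measured members. Of 7 SLC30 genes tested, 5 were higher and 0 lower by edgeR, with 1 lower at an unadjusted p under 0.05 and 0 lower by DESeq2, beside 19.1% of all genes higher and 16.9% lower. Their median log2 fold change was 0.32, where that of all genes was 0.00. SLC30A4, which loads zinc into vesicles, had a log2 fold change of 0.50, SLC30A6 of 0.44, SLC30A9 of 0.44 and SLC30A7 of 0.32. SLC30A1, the exporter of the plasma membrane and a target of MTF1, had 23.9 ± 1.43 CPM in NC and 26.3 ± 3.60 in RBM47-OE (SD, n = 3) and did not pass (adjusted p = 0.28 by edgeR). With the GC offset 0 of the 7 were called in either direction by edgeR, beside 5.97% of all genes higher and 8.57% lower. With that offset 0 had an unadjusted p under 0.05, and the median log2 fold change was -0.026. DESeq2 without the offset called 5 higher.

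The SLC39 family, which brings zinc into the cytosol, moved in both directions. Of 11 tested, 5 were higher and 3 lower, beside 19.1% and 16.9% of all genes, with a median log2 fold change of -0.09. SLC39A10 rose by 0.61 on the log2 scale, from 35.0 ± 0.786 to 53.5 ± 4.77 CPM (SD, n = 3), SLC39A6 by 0.39 and SLC39A11 by 0.38, while SLC39A3 fell by 0.47. With the GC offset 2 were higher, SLC39A10 (0.31) and SLC39A11 (0.45), and 0 lower by edgeR, beside 5.97% and 8.57% of all genes. At an unadjusted p under 0.05, 2 were lower with that offset. DESeq2 without the offset called 5 higher and 3 lower.

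Other known targets of MTF1, a list not sorted by whether MTF1 raises or lowers each gene, moved both ways as well. Of 9 tested, 3 were higher and 4 lower, beside 19.1% and 16.9% of all genes, with a median log2 fold change of 0.10. With the GC offset 2 were higher, SLC39A10 and TXNRD1, and 2 lower, HMOX1 and SELENOH, beside 5.97% and 8.57% of all genes. HMOX1, the heme oxygenase induced by heme, metals and oxidants, fell by 0.62, from 44.8 ± 3.09 to 29.2 ± 2.50 CPM (SD, n = 3). PGF, an angiogenic growth factor, fell by 0.43 but was not called with the GC offset (-0.25, adjusted p = 0.12 by edgeR). SELENOH, a nuclear selenoprotein, fell by 0.38, and SLC39A10 rose as given above.

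**Figure D5:**
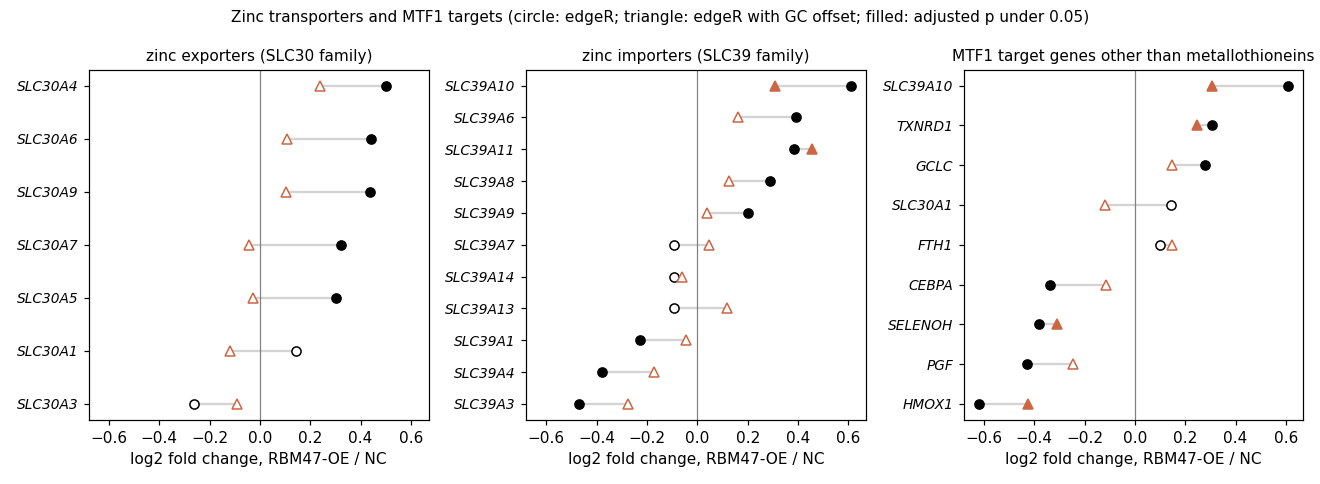
Log2 fold change of RBM47-OE against NC (x axis) for zinc exporters, zinc importers and MTF1 targets other than metallothioneins, by edgeR (circles) and by edgeR with the GC offset (triangles), filled where the adjusted p was under 0.05. The 5 SLC30 genes called higher by edgeR are not called with the GC offset, whereas SLC39A10, SLC39A11, TXNRD1, SELENOH and HMOX1 are called in both.

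Copper handling genes were split, with 2 of 13 tested higher and 5 lower, beside 19.1% and 16.9% of all genes. Their median log2 fold change was -0.06. ATOX1, the copper chaperone that feeds the secretory copper pumps, fell by 0.65, and SCO2, an assembly factor of cytochrome c oxidase, fell by 0.41. ATP7A, such a copper pump, rose by 0.49 and STEAP2, a metalloreductase, by 0.40. With the GC offset, edgeR called 0 higher and 2 lower, beside 5.97% and 8.57% of all genes. At an unadjusted p under 0.05, 1 was higher with that offset. The 2 lower were ATOX1 and COX17, while SCO2 (-0.19, adjusted p = 0.065 by edgeR) was no longer called. DESeq2 without the offset called 3 higher and 5 lower.

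Of 14 tested genes induced by metals and by damaged proteins, 7 were lower and 3 higher, beside 16.9% and 19.1% of all genes. Their median log2 fold change was -0.22. HSPA1B, a stress-induced chaperone with a near-identical copy in HSPA1A that makes its counts uncertain, fell by 0.76. OSGIN1, a target of the oxidant sensor NRF2, fell by 0.60 and BAG3, a co-chaperone, by 0.42, and HMOX1 is also in this list. After the GC offset 4 were lower and 1 higher by edgeR, beside 8.57% and 5.97% of all genes.

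Glucocorticoids also induce metallothioneins, and of 9 glucocorticoid-responsive genes tested 3 were higher and 2 lower, beside 19.1% and 16.9% of all genes, with a median log2 fold change of 0.09. KLF9, a transcription factor, rose by 0.58, and NR3C1, the glucocorticoid receptor itself, by 0.50, while PER1, a clock gene, fell by 0.54 and DUSP1, a phosphatase, by 0.33. The GC offset also gave 3 higher and 2 lower, beside 5.97% and 8.57% of all genes, but not the same genes. DUSP1 (-0.17, adjusted p = 0.22 by edgeR) and ERRFI1 lost their calls, and SGK1 (lower) and TSC22D3 (higher) gained theirs. In CPM the groups overlapped for both SGK1 and TSC22D3. TSC22D3 had 28.5, 53.6 and 16.4 CPM in RBM47-OE libraries 1 to 3, against 21.9 to 23.8 in NC, so replicate 3 lay below all NC libraries.

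Of 15 tested genes around the metallothionein cluster on chromosome 16, 2 were higher and 4 lower, beside 19.1% and 16.9% of all genes, with a median log2 fold change of -0.078. RSPRY1 rose by 0.38 and BBS2, a ciliary gene, by 0.27, while NUP93, a nuclear pore gene, fell by 0.36 and CIAPIN1 by 0.29. By edgeR with the GC offset, 0 neighbours were higher, beside 5.97% of all genes, with 2 at an unadjusted p under 0.05. With that offset 6 were lower, beside 8.57% of all genes, with a median log2 fold change of -0.16. These were not all the same genes, since POLR2C (-0.16, adjusted p = 0.062 by edgeR) lost its call. OGFOD1, ARL2BP and NUDT21 gained one, and NUDT21 changed sign, from 0.16 without the offset to -0.18 (adjusted p = 0.046 by edgeR). DESeq2 without the offset called 2 higher and 4 lower.

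Over the 6 libraries, the genes whose log2 CPM ran closest to that of the summed metallothioneins were NDUFA3, POLR2L and ELOB. Their root mean square difference from the sum, after centring, was 0.031, 0.045 and 0.051, where the median over 10326 genes was 0.33. Being the closest, they lie under the median by choice. All 3 were themselves called lower by edgeR (log2 fold changes -0.64, -0.63 and -0.51), and their likeness to the sum includes this group difference. The genes closest to MTF1 were MID1, KIFBP and RBBP6, at 0.019, 0.023 and 0.023, where the median was 0.18.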

How the data were processed

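Poly(A) RNA of 6 HCT116 libraries was used. After trimming, the authors used HISAT2 for alignment to GRCh38 and deposited the counts of uniquely mapped reads per gene, not normalized. They also deposited FPKM computed from those reads. The counting tool, the annotation release and the use of strand in counting are not given in the sources used here.

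The counts were tested with edgeR 4.0.16 in R 4.3.3 (filterByExpr with a minimum count of 10 and a minimum total of 15, TMM, quasi-likelihood test, condition as the only term), with Benjamini-Hochberg adjustment over all 16260 genes tested. The standard error is the size of the log2 fold change over the square root of F. Alternatives were DESeq2 1.42.0, the tool of the study, RLE factors, library totals, other filters, the replicate number as a block, GC and length offsets (loess, span 0.3), limma 3.58.1 on log2(FPKM + 1) and log2(FPKM + 0.1), and each library left out. Offsets used the exons of GENCODE 44, matched for 16233 tested genes. The edgeR and DESeq2 steps were checked on simulated counts, and the limma step on simulated counts scaled by library total and not by gene length. The simulation used a common dispersion for all genes and both groups, so it did not copy the wider spread of the RBM47-OE libraries. Total counts of 26792409 to 35477983 per library set the counting precision.

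The 6 genes, the lists and the tests were chosen with earlier results of these data known. Beside the 6 genes, at most 4 called genes a list were named, by size of change, and the 3 genes closest to the summed metallothioneins and to MTF1 among those with a mean log2 CPM (prior count 2) of at least 3. SLC30A1, TXNRD1, COX17, ERRFI1, SGK1, TSC22D3, POLR2C, OGFOD1, ARL2BP, NUDT21 and the marker genes were named after their values were seen.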

Additional observations from a re-analysis of the deposited data

How the results depend on the processing

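MT2A and MT1E kept their direction and stayed past an adjusted p of 0.05 under all 22 alternatives each, with log2 fold changes of -0.62 to -0.44 and -0.63 to -0.43 over the settings, and of -0.73 to -0.50 and -0.73 to -0.52 with each library left out. MT1X kept both in 21 of 22. With limma on log2(FPKM + 1) without a filter it was -0.38 (adjusted p = 0.077), and with each library left out -0.59 to -0.37. The summed log2 ratio ranged from -0.59 to -0.44, and from -0.72 to -0.49 with each library left out. RBM47 ranged from 5.42 to 5.96, and from 5.85 to 5.998 with each library left out. The number of the 5 genes past the study's thresholds was 2, but 0 with library totals, with the GC and length offsets, with limma and when RBM47-OE replicate 2 was left out, and 3 when replicate 1 of that group was. Over all genes, 142 passed them in the lower direction by edgeR. This number was 79 with library totals, 92 with the GC offset, 129 with the length offset and 27 to 114 with limma. It was 126 without RBM47-OE replicate 2 and 213 without replicate 1.

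MT1F turned positive with the GC offset (0.11), the GC offset with the replicate block (0.10), the length offset (0.021), and the offsets added after seeing the data for canonical transcript GC (0.047), canonical transcript length (0.063) and GC and length jointly (0.070). With each library left out MT1F was -0.23 to 0.072. MTF1 was -0.028 with the canonical transcript length offset and 0.079 to 0.21 with each library left out. The genes of the 5 called higher were 0 to 1 with each library left out, the 1 being MTF1 without RBM47-OE replicate 1. The cause of these changes was not tested.

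With the GC offset, SLC30 genes called higher went from 5 to 0, SLC39 genes from 5 higher and 3 lower to 2 and 0, MTF1 targets from 4 to 2 lower, copper genes from 2 higher and 5 lower to 0 and 2, stress genes from 3 higher and 7 lower to 1 and 4, and chromosome 16 neighbours from 2 higher and 4 lower to 0 and 6. The 6 neighbours did not include all of the earlier 4. Over all genes the offset called 1393 lower and 971 higher, where 2740 and 3100 were called without it. Library totals moved the median of all genes to 0.06.

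Same-numbered libraries of the groups showed no likeness by number. Their deviations correlated at -0.060, -0.015 and -0.016, and 0 of 6 libraries correlated best with their own number. The sources used here do not say whether they shared a culture or batch, and these values cannot tell. With the replicate block MT1E was -0.63, MT2A -0.62, MT1X -0.46, MT1F -0.080 and MTF1 0.13, with the same 3 genes lower, and 2510 genes were lower and 2957 higher in all. Depth limits MT1F most, at 243 to 377 counts a library.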
